A study of Mus musculus with 6 samples.

Results

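The genes described here are those of antigen presentation by the major histocompatibility complex (MHC), read in mammary tumours of mice with and without an endotrophin transgene. They were all probes whose annotated symbol starts with H2-, the prefix of the mouse MHC, and the probes of 13 genes that serve the pathway: B2m, Tap1, Tap2, Tapbp, Cd74, Ciita, Nlrc5, Psmb8, Psmb9, Psmb10, Psme1, Psme2 and Erap1. This gave 52 genes, out of 19057 named on the array, read by 91 of its 45281 probes. Of these, 62 probes for 39 genes lay above the background limit on at least 3 of the 6 arrays and were tested.

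The tumours came from 12-week-old female mice of the pure FVB strain. The 3 PyMT/ETP tumours, which the labels also call PyMT/C5, carried the endotrophin transgene together with the PyMT transgene. The 3 PyMT control tumours carried PyMT alone, so both groups share the polyomavirus middle T antigen, driven in mammary epithelium by a mouse mammary tumour virus promoter. Endotrophin is the fragment cleaved from the carboxy terminus of the collagen VI alpha 3 chain; the labels do not name the promoter of its transgene. Whether every array holds a different animal is not stated in the labels, and the p-values then describe only how these 6 samples spread, part of which may be technical. Each tumour was read on 1 Illumina bead array with biotin-labelled RNA, and the number of arrays limits the precision. All 8 genes of a luminal epithelium list were tested, and the keratin gene Krt8 averaged 13.38 log2 units in PyMT/ETP and 13.64 in PyMT control tumours. None of the 8 passed, but the groups did not overlap for Krt8 and Krt19 (log2 differences -0.27 and -0.78, lower in PyMT/ETP) or for Epcam (0.41, higher). Over all tested genes the groups did not overlap for 8.17%, with 4.52% higher and 3.65% lower in PyMT/ETP. Of 6 basal epithelium genes, all tested, 5 had a negative difference, with a median of -0.42, and none passed. The groups did not overlap for 1 of them, Krt5 (-0.51, lower in PyMT/ETP). Krt17 had the largest difference (-1.10), with overlapping groups. The part of luminal and basal cells in the values below was not tested. No probe used here is named for Col6a3, the gene endotrophin comes from, so the transgene itself was not checked.

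Class I molecules show peptides from inside the cell to CD8 T cells. A class I molecule is a heavy chain paired with beta-2-microglobulin; its peptides are cut by the proteasome, carried into the endoplasmic reticulum by the TAP transporter and loaded there with the help of tapasin. Class II molecules are pairs of an alpha and a beta chain that show peptides from endosomes to CD4 T cells, and are made mainly by dendritic cells, B cells and macrophages. Interferon-gamma can induce both classes, class I through the activator NLRC5 and class II through CIITA. In bulk tumour RNA, fewer cells of a type and less RNA per cell cannot be told apart, and a level here may come from tumour cells, immune cells or stroma. FVB mice carry the q haplotype of the H2 complex, in which, as in the reference strain, the class II E alpha chain is not made.

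Class I and class II promoters share short control elements, so the stretches before 6 gene starts are shown to let the members be set beside each other. The sequences are from RefSeq for GRCm38.p6, which is the reference strain and not FVB, and they run 5′ to 3′ along the gene. Windows were found for 39 of the 52 genes. The first listed window of each gene was used, and its 250 bases before the start were searched on both strands for the palindromic kappaB element, a form of the interferon-stimulated response element (GAAA, any 2 bases, GAAA), TGACG (the core of the cyclic AMP element) and CCAAT. The kappaB letters are the first capitals in H2-D1, and the interferon form is the first in B2m. Capitals mark the matches (ATTGG is CCAAT on the other strand), with neighbouring matches running together where they overlap. H2-D1 (chr17:35262844-35263093, plus strand) and H2-Q6 (chr17:35424600-35424849, plus strand) stand for the heavy chains, B2m (chr2:122147437-122147686, plus strand) for their light chain, and H2-Aa (chr17:34287824-34288073, minus strand) and H2-Eb1 (chr17:34305617-34305866, plus strand) for class II. The stretch of 225 bases before Tap1 (chr17:34187331-34187555, plus strand) is also the stretch before Psmb9, which is read the other way.
H2-D1: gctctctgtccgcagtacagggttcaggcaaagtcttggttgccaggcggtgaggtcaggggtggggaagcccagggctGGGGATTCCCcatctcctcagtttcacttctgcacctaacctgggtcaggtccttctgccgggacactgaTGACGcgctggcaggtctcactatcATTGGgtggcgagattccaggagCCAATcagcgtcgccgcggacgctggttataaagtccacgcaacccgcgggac
H2-Q6: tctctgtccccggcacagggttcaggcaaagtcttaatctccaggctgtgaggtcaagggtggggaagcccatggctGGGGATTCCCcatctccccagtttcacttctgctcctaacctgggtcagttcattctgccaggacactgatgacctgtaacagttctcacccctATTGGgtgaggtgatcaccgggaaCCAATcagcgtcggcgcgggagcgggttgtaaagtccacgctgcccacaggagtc
B2m: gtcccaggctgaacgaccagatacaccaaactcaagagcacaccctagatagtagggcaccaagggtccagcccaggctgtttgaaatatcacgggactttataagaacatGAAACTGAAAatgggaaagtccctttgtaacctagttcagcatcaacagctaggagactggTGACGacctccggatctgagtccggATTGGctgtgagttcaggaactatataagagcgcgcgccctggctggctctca
Tap1 and Psmb9: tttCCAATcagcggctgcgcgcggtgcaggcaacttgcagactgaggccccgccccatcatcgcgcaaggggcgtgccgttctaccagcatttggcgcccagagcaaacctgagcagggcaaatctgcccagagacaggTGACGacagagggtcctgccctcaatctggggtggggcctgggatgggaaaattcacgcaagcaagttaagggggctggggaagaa
H2-Aa: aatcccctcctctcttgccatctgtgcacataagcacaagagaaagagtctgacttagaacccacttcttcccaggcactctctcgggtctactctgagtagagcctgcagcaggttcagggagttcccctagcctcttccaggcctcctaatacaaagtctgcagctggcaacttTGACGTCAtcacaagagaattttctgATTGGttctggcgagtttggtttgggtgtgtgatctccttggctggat
H2-Eb1: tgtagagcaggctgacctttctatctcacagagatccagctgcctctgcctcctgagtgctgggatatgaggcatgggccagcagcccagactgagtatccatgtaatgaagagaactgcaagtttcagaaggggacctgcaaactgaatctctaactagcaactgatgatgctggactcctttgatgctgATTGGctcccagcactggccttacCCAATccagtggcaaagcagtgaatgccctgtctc

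The single kappaB form searched for stood before 4 of 21 heavy chain genes, H2-K1, H2-D1, H2-Q6 and H2-Q7. It stood before none of the 9 loading and processing genes or the 8 class II genes, and before 0.0814% of all 27025 genes. CCAAT stood before 7 of 8 class II genes (not H2-DMa), 18 of 21 heavy chain genes and 4 of 9 loading and processing genes, against 34.5% of all genes. The interferon-stimulated form was found before B2m and before the heavy chain genes H2-T23 and H2-T22, against 3.04% of all genes. TGACG stood before 10 of 21 heavy chain genes, 4 of 9 loading and processing genes and 1 of 8 class II genes, against 17.9% of all genes. A match is a description of these letters and not a site of binding. Only these exact letters were searched for, so a gene with no match may still hold another form of an element. Other forms of the kappaB element were not searched for before B2m or any other gene. The counts therefore do not show that the element is absent from B2m or particular to heavy chains.

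No antigen presentation gene differed past the threshold when tumours with and without endotrophin were compared. In limma's fit, with Benjamini-Hochberg adjustment over 24893 tested probes, 0 of 62 member probes passed adjusted p 0.05, as did 0% of all probes, and the lowest adjusted p in the table was 0.9997. At unadjusted p 0.05 there were 4 member probes, 3 higher and 1 lower in PyMT/ETP, out of 62, against 4.69% of all probes (2.51% higher and 2.18% lower). The groups did not overlap for 4 member probes that were higher and 1 that was lower in PyMT/ETP, against 4.95% and 3.92% of all probes, or 8.87% together. By the brightest tested probe of each gene, the groups did not overlap for 3 of 39 members, against 8.17% of all 12864 genes. Of these, 2 were higher, against 4.52% of genes, and 1 was lower, against 3.65%. These shares are near those of the whole array. With 3 tumours against 3, an exact permutation test of a single gene cannot go below 0.1.

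Differences were small on the log2 scale used throughout, log2 of the background-corrected intensity plus 16. Over the 39 tested members they ran from -0.16 to 0.68, with a median of 0.085, beside 0.0041 over all tested genes. Of the members, 24 had a positive and 15 a negative difference, and 50.8% of all genes had a positive one. In 7 of the 39 the difference was larger than the SD of both groups, as it was in 2381 of all 12864 genes. A typical gene's 95% interval extended 0.40 log2 units (1.32-fold) each way, by the median over all genes.

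**Figure D1:**
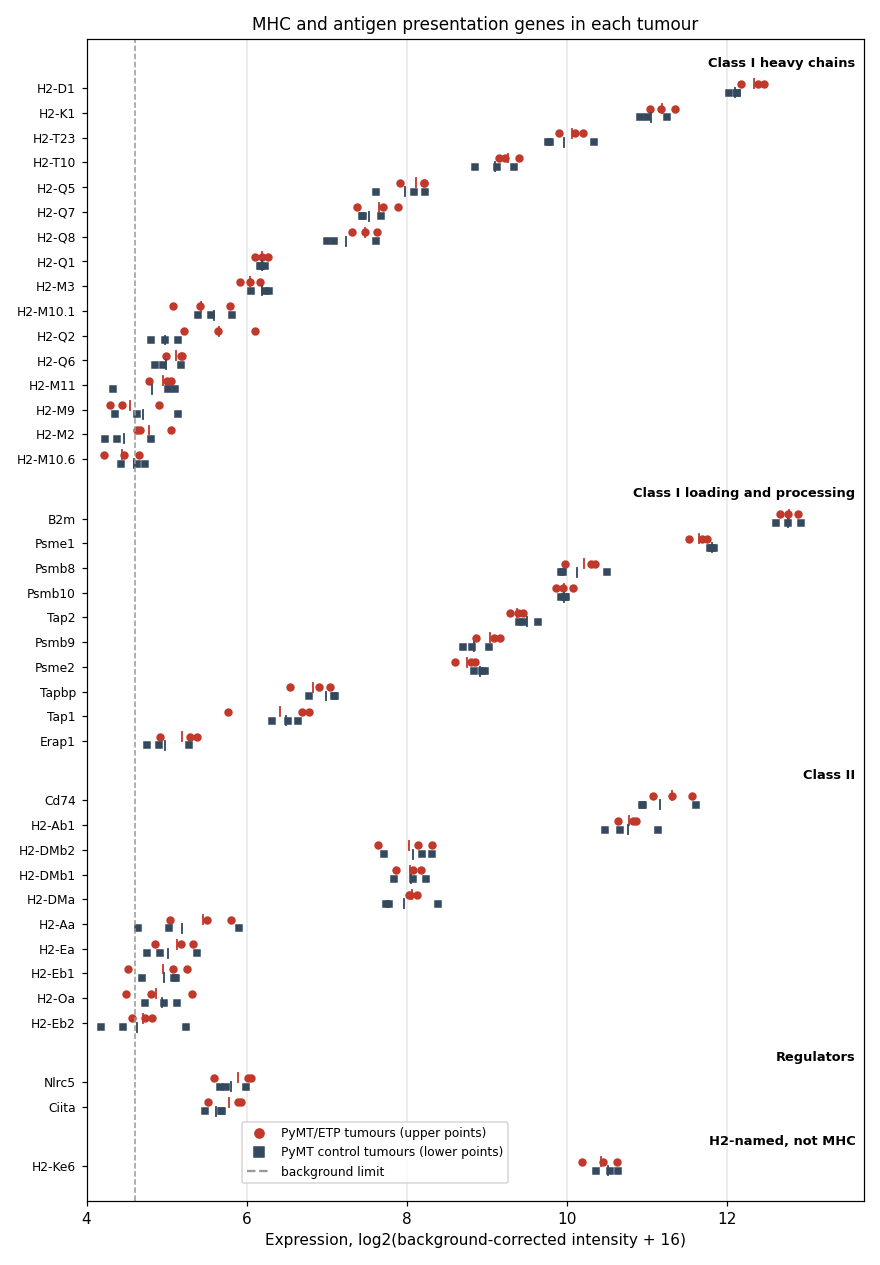
Level of the 39 tested genes in each tumour, by the brightest tested probe; the x axis is log2 of background-corrected intensity plus 16. Points are single tumours (PyMT/ETP above, PyMT control below), short bars are group means, the dashed line is the background limit at 4.61, and levels of different genes come from different probes and are not comparable. The 2 groups overlap for every gene but H2-D1, H2-Q2 and Psme1.

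Most tested class I heavy chains had small positive differences. Of 28 heavy chain genes on the array, 16 were tested, and 11 of these had a positive and 5 a negative difference, with a median of 0.13. None passed. H2-Bl, H2-M1, H2-M10.2, H2-M10.3, H2-M10.4, H2-M10.5, H2-M5, H2-Q10, H2-T18, H2-T22, H2-T24 and H2-T3 were not above the background limit on enough arrays. Heavy chain genes are near-identical copies of each other, and probes named for one can read another, so the names of the H2-D, K, Q and T genes are uncertain. The sum of background-corrected intensity of the 16 genes ranged from 9114 to 10870 in PyMT/ETP and from 8218 to 9593 in PyMT control tumours.

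H2-D1 encodes one of the classical heavy chains that present peptides to CD8 T cells. Its brightest probe was at 12.39, 12.46 and 12.17 in the PyMT/ETP tumours, against 12.12, 12.03 and 12.13 in the PyMT control tumours. All 3 PyMT/ETP values lay above all 3 controls, with PyMT/ETP replicate 3 close to the highest control. The log2 difference was 0.25 (SE 0.15, 95% interval -0.09 to 0.58), or 1.19-fold, and did not pass (limma adjusted p = 0.9997). Its other 2 tested probes gave 0.20 and 0.16, with groups that overlapped.

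H2-K1, the other classical heavy chain of this set, was at 11.17, 11.35 and 11.03 in PyMT/ETP and at 11.24, 10.998 and 10.91 in PyMT control tumours by its brightest probe. The groups overlapped, since PyMT control replicate 1 exceeded PyMT/ETP replicates 1 and 3. The log2 difference was 0.13 (SE 0.16). A second, dim H2-K1 probe was at 5.62, 5.67 and 5.36 in PyMT/ETP and at 5.33, 4.76 and 5.09 in PyMT control tumours, with groups that did not overlap. It gave a log2 difference of 0.49 (SE 0.19) at an unadjusted p of 0.0263 in limma's test (adjusted p = 0.9997), and its remaining probe gave 0.13.

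H2-T23 encodes Qa-1, a non-classical heavy chain that binds leader peptides of other class I chains and is read by NKG2 receptors. It was at 10.10, 10.20 and 9.90 in PyMT/ETP tumours, against 10.33, 9.76 and 9.78 in PyMT control tumours. The highest of all 6 values was PyMT control replicate 1, so the log2 difference of 0.11 (SE 0.19) stood inside the spread of the controls (SD 0.32, n = 3).

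H2-T10, a non-classical chain recognised by some gamma-delta T cells, showed the same order of the controls: 9.14, 9.40 and 9.23 in PyMT/ETP tumours, against 9.34, 8.85 and 9.12 in PyMT control tumours. Its brightest probe had a log2 difference of 0.15 (SE 0.17). A dim H2-T10 probe was at 4.86, 4.97 and 5.20 in PyMT/ETP and at 4.76, 4.29 and 4.29 in PyMT control tumours, of which only replicate 1 was above the background limit of 4.61. It gave 0.57 (SE 0.18) at an unadjusted p of 0.0124 in limma's test (adjusted p = 0.9997), while its remaining probe gave 0.016.

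The heavy chain gene with the largest difference was H2-Q2, of the Q region. It was dim, at 5.22, 5.65 and 6.10 in PyMT/ETP tumours, against 4.81, 5.14 and 4.98 in PyMT control tumours. The groups did not overlap, with PyMT/ETP replicate 1 just above the highest control and replicate 3 the highest of all. The log2 difference was 0.68 (SE 0.22, 95% interval 0.17 to 1.19) at an unadjusted p of 0.014 in limma's test, and it did not pass (adjusted p = 0.9997). The size depended on the treatment of background: it was 0.26 with no background correction and 0.38 with an offset of 50. H2-Q2 was the 1 member gene under unadjusted p 0.05 by its brightest probe, against 4.12% of all genes.

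The other Q region genes had log2 differences of 0.24 for H2-Q8, 0.14 for H2-Q5, 0.14 for H2-Q7, 0.12 for H2-Q6 and -0.0030 for H2-Q1, all with overlapping groups. Dimmer probes of H2-Q5 and H2-Q7 had the opposite sign, at -0.34 and -0.31. Of 17 members with several tested probes, these 2 genes and H2-Oa were the 3 whose probes differed in sign.

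Among the H2-M genes, H2-M3, which presents N-formylated bacterial peptides, was at 6.04 ± 0.12 in PyMT/ETP and 6.18 ± 0.12 in PyMT control tumours (SD, n = 3). H2-M2 lay at background in most controls: it was at 5.05, 4.63 and 4.66 in PyMT/ETP tumours, against 4.38, 4.80 and 4.23 in PyMT control tumours, a log2 difference of 0.31 (SE 0.20) with overlapping groups. H2-M10.1, H2-M10.6, H2-M9 and H2-M11 had log2 differences of -0.16, -0.15, -0.16 and 0.13, and none but H2-M10.1 was above the stricter background limit of 4.77 on all arrays.

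The median of the heavy chains depended on single tumours of both groups. The mean deviation over the 16 genes was -0.0045, 0.099 and 0.072 in PyMT/ETP replicates 1, 2 and 3, and 0.065, -0.11 and -0.12 in PyMT control replicates 1, 2 and 3. The median of 0.13 became 0.065 without PyMT control replicate 2, 0.058 without replicate 3 and 0.25 without replicate 1. It was 0.085 without PyMT/ETP replicate 2 and 0.087 without replicate 3. With both PyMT control replicates 2 and 3 left out, a setting added after the data were seen, the median was -0.069 and 4 of 16 genes had a positive difference. These were also the controls with the lowest heavy chain values, so their removal had to lower the difference, and 1 control remained. The same 2 tumours held the highest levels of keratinocyte genes: the mean deviation of 5 tested genes of a list of 7 was -0.73 to -0.39 in PyMT/ETP tumours, and -0.22, 0.39 and 1.59 in PyMT control replicates 1, 2 and 3. The summed intensity of those 5 genes was 504.9 to 545.8 in PyMT/ETP and 672.7 to 2727 in PyMT control tumours, Krt1 was under the limit on 4 of 6 arrays, and the part of these cells in the heavy chain values was not tested.

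**Figure D2:**
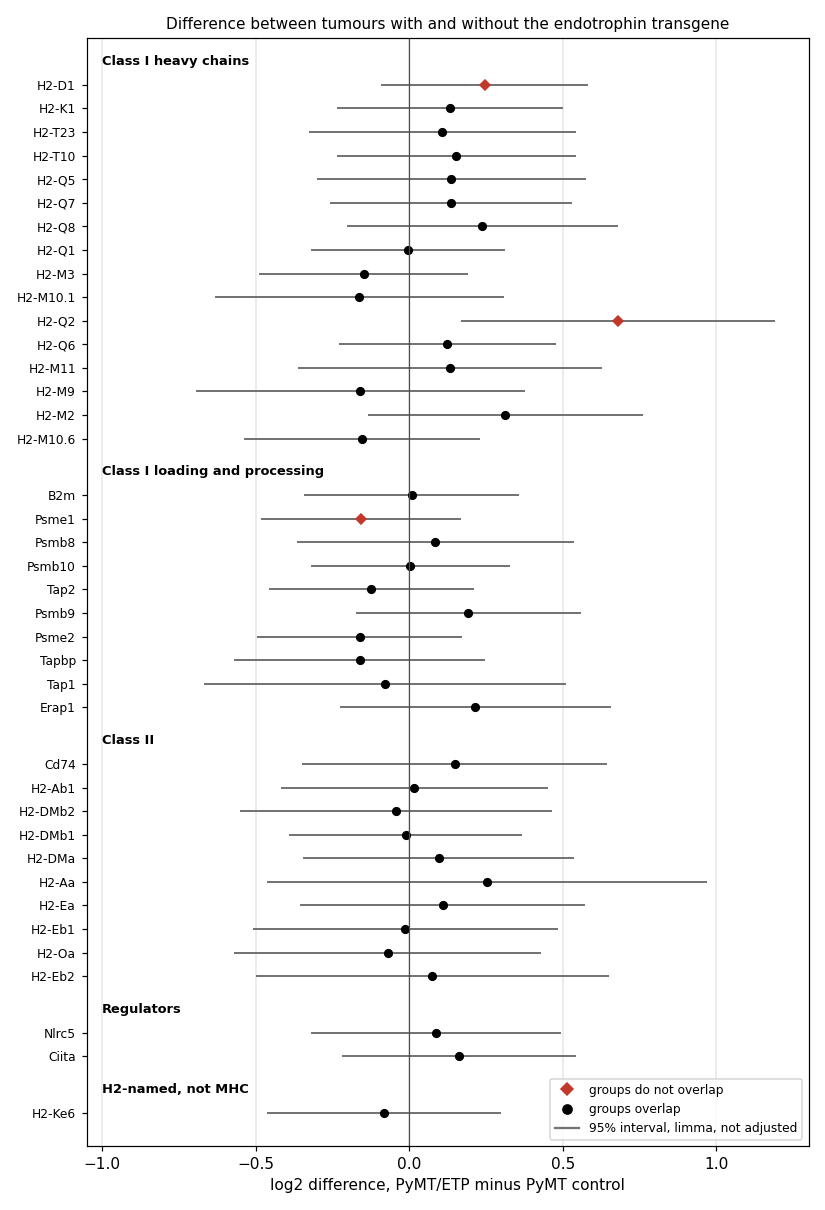
Log2 difference of each tested gene, PyMT/ETP minus PyMT control, with its unadjusted 95% interval from limma; diamonds mark the 3 genes whose groups do not overlap. The interval of H2-Q2 alone lies to one side of 0, and 11 of 16 heavy chains, 5 of 10 loading and processing genes and 6 of 10 class II genes lie to the right of 0.

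B2m encodes beta-2-microglobulin, the light chain that every class I heavy chain needs. It was at 12.66, 12.88 and 12.75 in PyMT/ETP tumours, against 12.91, 12.75 and 12.60 in PyMT control tumours. The 2 groups spanned almost the same range, and the log2 difference was 0.0087 (SE 0.15, 95% interval -0.34 to 0.36). The other tested B2m probe gave 0.013, and the remaining one was not above background on any array.

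Of the 10 loading and processing genes, all tested, 5 had a positive and 5 a negative difference, with a median of -0.037, and none passed. The subunits of the immunoproteasome, the form of the proteasome that replaces the constitutive catalytic subunits after interferon, had differences of 0.085 (Psmb8), 0.19 (Psmb9) and 0.0036 (Psmb10). Psmb8 was at 10.30, 10.35 and 9.97 in PyMT/ETP tumours, against 10.49, 9.92 and 9.95 in PyMT control tumours. Here, too, PyMT control replicate 1 was the highest of all 6. Psmb9 was at 9.08, 9.17 and 8.86 in PyMT/ETP and at 9.03, 8.81 and 8.69 in PyMT control tumours, with overlapping groups. Psmb10 was at 9.95, 10.08 and 9.86 in PyMT/ETP and at 9.92, 9.99 and 9.98 in PyMT control tumours, so its 6 values lay close together and the groups overlapped. A dimmer Psmb8 probe had a larger difference, 0.42 (SE 0.23), with overlapping groups.

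The proteasome activator PA28, whose subunits Psme1 and Psme2 encode, had negative differences in both subunits. Psme1 was at 11.69, 11.75 and 11.52 in PyMT/ETP tumours, against 11.81, 11.79 and 11.83 in PyMT control tumours, with groups that did not overlap. Its controls were the closest of these genes, with an SD of 0.021, and the difference was -0.16 (SE 0.14, adjusted p = 0.9997 in limma's test). The second Psme1 probe, at 10.87, 10.66 and 10.68 in PyMT/ETP against 10.87, 10.81 and 10.54 in PyMT control tumours, gave -0.0088 and overlapped. Psme2 was at 8.60, 8.80 and 8.85 in PyMT/ETP and at 8.83, 8.94 and 8.97 in PyMT control tumours, a difference of -0.16 (SE 0.15) with groups that overlapped.

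The peptide transporter is a pair of TAP1 and TAP2, and tapasin, the product of Tapbp, holds class I molecules next to it. Tap1 was at 5.77, 6.70 and 6.78 in PyMT/ETP tumours, against 6.32, 6.64 and 6.51 in PyMT control tumours. PyMT/ETP replicate 1 was the lowest and replicates 2 and 3 the highest of the 6, so the difference of -0.077 (SE 0.26) lay between opposite values within one group. Without PyMT/ETP replicate 1 it was 0.25, and without replicate 3 it was -0.26. Tap2 was at 9.45, 9.39 and 9.29 in PyMT/ETP and at 9.64, 9.45 and 9.40 in PyMT control tumours (difference -0.12, SE 0.15). Tapbp was at 6.54, 7.04 and 6.91 in PyMT/ETP and at 6.78, 7.10 and 7.09 in PyMT control tumours (difference -0.16, SE 0.18), again lowest in PyMT/ETP replicate 1. Its second probe gave -0.44 (SE 0.19) at an unadjusted p of 0.0482 in limma's test (adjusted p = 0.9997), with overlapping groups. Erap1, which trims peptides in the endoplasmic reticulum, was dim, at 5.29, 5.37 and 4.91 in PyMT/ETP and at 5.28, 4.75 and 4.90 in PyMT control tumours.

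Tap1 and Psmb9 start on opposite strands on either side of the 225 bases printed above. In PyMT/ETP replicate 1, Tap1 had its lowest value (5.77) and Psmb9 its second highest (9.08). In PyMT/ETP replicate 3, Tap1 had its highest value (6.78), while Psmb9 was at 8.86, below PyMT control replicate 1 (9.03). In PyMT/ETP replicate 2, Psmb9 had its highest value (9.17) and Tap1 its second highest (6.70).

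PyMT/ETP replicate 1 stood apart in most interferon-stimulated genes of the list, but not in class I heavy chains. Of 17 tested interferon-stimulated genes of a list of 20, 13 had their lowest value in that tumour, and their mean deviation was -0.68 there, against 0.30 and 0.25 in PyMT/ETP replicates 2 and 3 and -0.063 to 0.19 in PyMT control tumours. Usp18, a brake on type I interferon signalling, was at 6.14 there, against 8.45 and 8.58 in PyMT/ETP replicates 2 and 3 and 8.09, 7.90 and 8.15 in PyMT control tumours. Mx1, Irgm1, Iigp1 and Cxcl9 were not lowest in that tumour. Cxcl9 had its highest value there, 6.55, against 5.65 and 5.42 in PyMT/ETP replicates 2 and 3. In PyMT control tumours Cxcl9 was at 5.20, 5.19 and 5.27. Of the 16 heavy chains, 3 were lowest in that tumour, H2-Q7, H2-Q1 and H2-M9, and of the 10 loading and processing genes 3 were, Tap1, Tapbp and Psme2. Of the 3 genes with that interferon-stimulated form before the start, H2-T22 was not tested. In PyMT/ETP replicate 1, B2m was at 12.66, above PyMT control replicate 3 alone, and H2-T23 was at 10.10, within the range of the other tumours. The summed intensity of the 17 interferon-stimulated genes was 6715 to 9187 in PyMT/ETP and 7987 to 8710 in PyMT control tumours, and Ifit1, Oas1a and Cxcl10 were above the limit on at most 2 arrays. Without PyMT/ETP replicate 1 the median of the heavy chains was 0.18. That of the loading and processing genes, -0.037 over all tumours, became 0.025 when that tumour was dropped and -0.092 when PyMT/ETP replicate 2 was. Dropping PyMT control replicate 2 gave -0.0088, and dropping PyMT control replicate 3 gave -0.067.

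**Figure D3:**
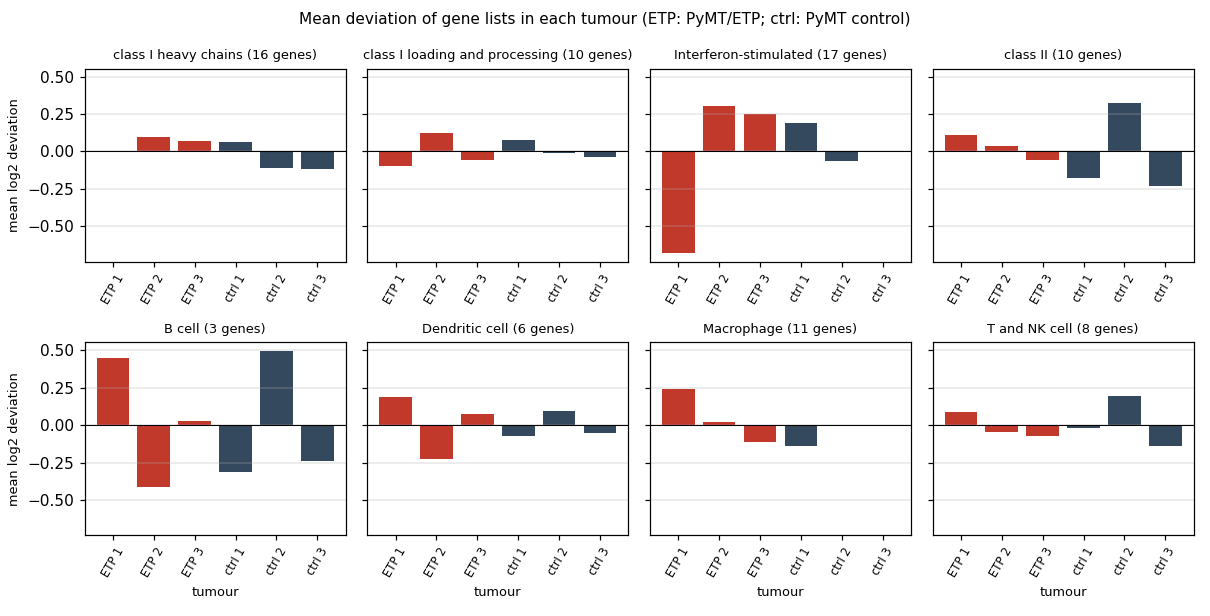
Mean log2 deviation of each list from its genes' means over the 6 tumours, 1 bar per tumour, PyMT/ETP (ETP) in red and PyMT control (ctrl) in dark blue. The interferon-stimulated bar of PyMT/ETP replicate 1 reaches -0.68 while the class I bars stay between -0.12 and 0.13, and the class II bar is highest, at 0.33, in PyMT control replicate 2.

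By their brightest probes, class II genes varied more between the control tumours than between the groups. Of 11 class II genes, 10 were tested, 6 with a positive and 4 with a negative difference, with a median of 0.046; H2-Ob was not above background on any array. For all 10 the groups overlapped, and by the brightest probe none had a difference larger than the SD of both groups. Dimmer probes of H2-Ab1 and Cd74 did, with overlapping groups. These differences were 0.32 for H2-Ab1 (SDs 0.26 in PyMT/ETP and 0.092 in PyMT control) and 0.24 for Cd74 (0.14 and 0.20). By the brightest probe, the highest of the 6 values was PyMT control replicate 2 in 8 of the 10. The lowest was PyMT control replicate 1 in 4 and PyMT control replicate 3 in 3. For H2-DMb2 the margin was slight, 8.3156 against 8.3151 in PyMT/ETP replicate 3. The other tested probes of Cd74, H2-Ab1 and H2-DMa were all highest in a PyMT/ETP tumour. An H2-Ab1 probe was at 10.03 in PyMT/ETP replicate 1 and at 9.51 in PyMT control replicate 2. The list's mean deviation was 0.11, 0.033 and -0.058 in PyMT/ETP replicates 1 to 3, and -0.18, 0.33 and -0.23 in PyMT control replicates 1 to 3. Leaving out PyMT control replicate 2 gave a median of 0.25. Leaving out 1 PyMT/ETP tumour gave 0.013 (replicate 1), 0.076 (replicate 2) or 0.098 (replicate 3). It turned negative without PyMT control replicate 1 (-0.016) or 3 (-0.058), and was 0.26 without PyMT control replicates 2 and 3.

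Cd74 encodes the invariant chain, which escorts class II molecules to endosomes. It was at 11.55, 11.31 and 11.08 in PyMT/ETP tumours, against 10.94, 11.61 and 10.94 in PyMT control tumours. Only PyMT control replicate 2 among the controls reached the PyMT/ETP values, and the log2 difference of 0.15 (SE 0.22) was below the SD of the controls (0.39). The other 2 Cd74 probes gave 0.24 and 0.055.

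H2-Ab1, the beta chain of the class II A molecule, was at 10.86, 10.83 and 10.63 in PyMT/ETP tumours, against 10.66, 11.13 and 10.48 in PyMT control tumours by its brightest probe. The log2 difference was 0.017 (SE 0.19). Its other 2 probes gave 0.32 (SE 0.17) and 0.28 (SE 0.21), so the size, but not the sign, depended on the probe. H2-Aa, the alpha chain, was read by 1 dim probe, at 5.51, 5.80 and 5.04 in PyMT/ETP and at 4.64, 5.91 and 5.03 in PyMT control tumours. Its lowest and its highest value were both controls, and its difference was 0.25 (SE 0.32).

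The class II E genes read close to background, and whether their probes match the FVB sequence was not tested. H2-Eb1, the E beta chain, was at 4.52, 5.26 and 5.08 in PyMT/ETP and at 4.69, 5.11 and 5.09 in PyMT control tumours, a difference of -0.013 (SE 0.22). H2-Ea, the alpha chain that the q haplotype does not make, gave 5.33, 5.18 and 4.86 in PyMT/ETP and 4.75, 5.38 and 4.91 in PyMT control tumours. Neither separated the groups. H2-Eb2 had a difference of 0.076 and was above the limit on 3 of 6 arrays.

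H2-DM and H2-DO edit the peptides that class II molecules carry. H2-DMa was at 8.06 ± 0.05 in PyMT/ETP and 7.97 ± 0.36 in PyMT control tumours (SD, n = 3), a difference of 0.096 (SE 0.19). H2-DMb1 had a difference of -0.012 and H2-DMb2 one of -0.043. These neighbouring copies read alike: H2-DMb1 was at 8.07, 7.87 and 8.18 in PyMT/ETP and 8.08, 8.23 and 7.84 in PyMT control tumours, and H2-DMb2 at 8.14, 7.64 and 8.32 in PyMT/ETP and 8.19, 8.32 and 7.72 in PyMT control tumours. Whether each probe reads its own gene alone was not tested. H2-Oa, a subunit of H2-DO, was near background with a difference of -0.070.

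Markers of antigen-presenting and lymphoid cells were read beside class II. B cell genes had a mean deviation of 0.45 in PyMT/ETP replicate 1 and 0.49 in PyMT control replicate 2. By the brightest probes, class II was highest in PyMT control replicate 2. The 3 tested B cell genes were dim. Cd79b exceeded the background limit on 3 of 6 arrays and Ms4a1 on 4, and none of the 3 exceeded 4.77 on every array. The B cell deviations thus rest in part on values near background. T and NK cell genes had a mean deviation of 0.090 and 0.19 in those tumours, and 3 of their 8 tested genes exceeded 4.77 on every array. Dendritic cell genes were highest in PyMT/ETP replicate 1, at 0.18, against 0.092 in PyMT control replicate 2. Single dendritic cell genes differed: Clec10a, Ccr7 and Siglech had their highest value in PyMT control replicate 2, while Zbtb46 had its lowest there. Flt3 was highest in PyMT/ETP replicate 1 and Batf3 in PyMT/ETP replicate 3. Of the 6 tested dendritic cell genes, 2 exceeded 4.77 on every array. Flt3 and Zbtb46 exceeded the background limit on 3 of 6 arrays and Batf3 on 4, so their orders rest in part on values near background. Macrophage genes followed another order, with a mean deviation of 0.24 in PyMT/ETP replicate 1 and -0.0062 in PyMT control replicate 2.

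The lists themselves were measured in part. Of 6 B cell genes 3 were tested, with a summed intensity of 23.07 to 81.93 in PyMT/ETP and 26.96 to 86.44 in PyMT control tumours; Pax5 was not above the limit on any array. Of 10 dendritic cell genes 6 were tested (205.4 to 322 in PyMT/ETP, 194.4 to 338.3 in PyMT control), and Itgax was not above the limit on any array. Of 12 T and NK cell genes 8 were tested (1013 to 1147 in PyMT/ETP, 849.6 to 1393 in PyMT control), and Cd8a, Ncr1, Gzmb and Ifng, the gene of interferon-gamma, were not above it on any array. Of 13 macrophage genes 11 were tested (7113 to 9395 in PyMT/ETP, 7194 to 7618 in PyMT control), and Itgam was not above it on any array. The part of these cells in the class II values was not tested.

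**Figure D4:**
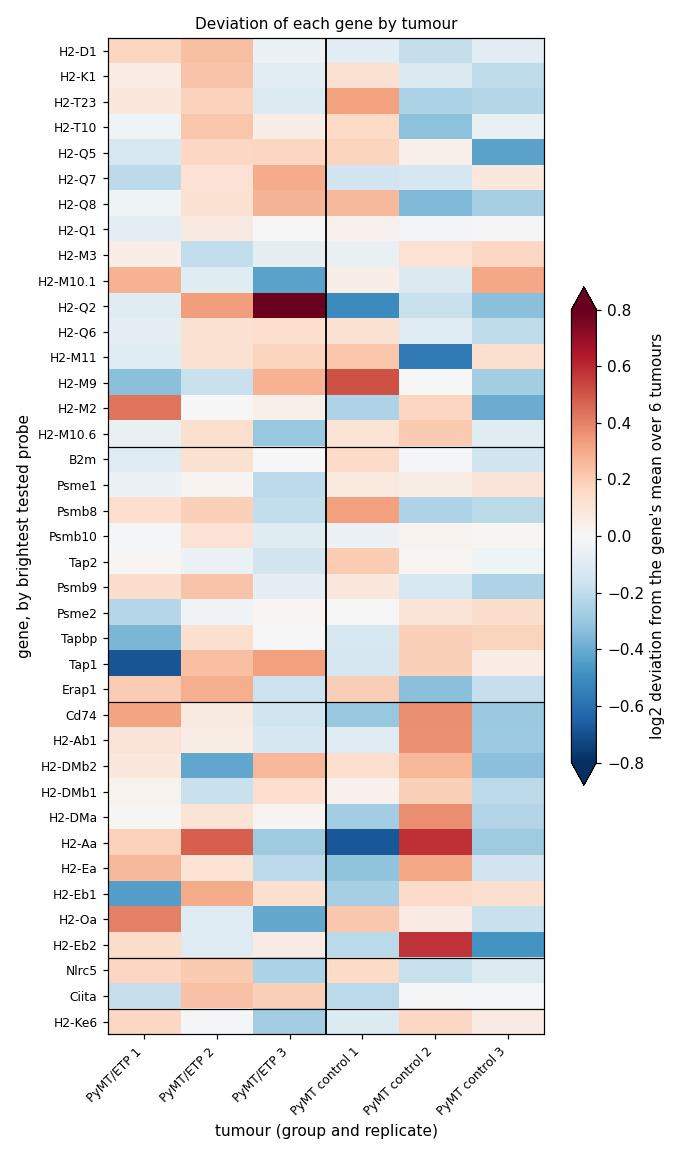
Deviation of each tested gene from its own mean over the 6 tumours, on a log2 scale, with PyMT/ETP tumours in the 3 left columns and PyMT control tumours in the 3 right columns; horizontal lines part heavy chains, loading and processing genes, class II, regulators and H2-Ke6. Each gene is read by its brightest tested probe. Most class II rows are red in PyMT control replicate 2, Tap1 is dark blue in PyMT/ETP replicate 1, and H2-Q2 is darkest red in PyMT/ETP replicate 3.

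The activators of the 2 classes had differences inside the spread of the tumours. Nlrc5, the activator of class I, was at 6.02, 6.05 and 5.59 in PyMT/ETP tumours, against 5.996, 5.67 and 5.74 in PyMT control tumours, a difference of 0.088 (SE 0.18) that ranged from 0.0061 to 0.24 with 1 array left out. Ciita, the activator of class II, was at 5.52, 5.93 and 5.89 in PyMT/ETP and at 5.48, 5.69 and 5.68 in PyMT control tumours, a difference of 0.16 (SE 0.17). By this probe Ciita was highest in PyMT/ETP replicate 2, and PyMT control replicate 2 was the highest control by a slight margin. A second Ciita probe, above the limit on 2 arrays and not tested, was highest in PyMT control replicate 2, at 4.94. Most class II genes were also highest there by their brightest probes. H2-Ke6 lies in the H2 region but encodes a hydroxysteroid dehydrogenase and not an MHC chain; it had a difference of -0.083 (SE 0.17).

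Genes that work with the pathway but are not MHC members were taken from a list of 37, of which 31 were tested. None passed; 26 had a positive and 5 a negative difference, with a median of 0.12, and the groups did not overlap for 0 of them, against 8.17% of all genes. The largest positive difference was that of Cd1d1, which presents lipids to NKT cells: it was at 8.95, 8.94 and 8.52 in PyMT/ETP and at 8.82, 8.19 and 8.005 in PyMT control tumours, a difference of 0.46 that overlapped between the groups. The endosomal protease gene Ctss, which cleaves the invariant chain, had a difference of 0.26, and the chaperone genes Calr and Pdia3 of the class I loading complex had 0.20 each. Hspa5, Ctsl and Irf8 had 0.43, 0.32 and 0.30, and the interferon regulator gene Irf1 had 0.0095. The 5 negative differences were those of Creb1 (-0.32), Rela (-0.22), Nfyc (-0.14), Psme3 (-0.064) and Psme4 (-0.024). The constitutive proteasome subunit genes Psmb5, Psmb6 and Psmb7 had 0.11, 0.12 and 0.069, in the range of their immunoproteasome counterparts.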

How the data were processed

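RNA of 6 mammary tumours was extracted with Trizol, cleaned on columns and made into biotin-labelled cRNA for Illumina arrays, per the labels' protocols. The deposited unit is linear intensity per probe; no label or header names the authors' software, background treatment or normalization. After sorting, arrays differed nowhere by more than 0.185, as after quantile normalization. A second table, from before normalization, was not used: its 24 value columns carry no sample label.

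The background level (86.1) and SD (4.83) came from the lowest values (a share of 0.6). limma 3.58.1 in R 4.3.3 applied normexp. All levels are log2 of that value plus 16, which understates changes of dim genes. Tested probes exceeded the 5% background limit, 94.04, on 3 or more arrays: 24893 probes, 12864 genes. One fit over all probes compared the groups (lmFit and eBayes, two-sided, Benjamini-Hochberg, threshold 0.05), after a test on simulated data. Each gene is given by its brightest tested probe. Platform symbols (34885 probes with 1, 18 with several, 10378 with none) were updated through RefSeq, which matched 34807. No test compared levels of different probes. Such levels served to choose a gene's brightest probe and the 4 heavy chains of highest mean, and were summed over lists. Those of H2-DMb1 and H2-DMb2 were set side by side. The members and lists were chosen with earlier results of these data known; genes given per tumour followed a written rule: the 4 heavy chains of highest mean, H2-Aa, H2-Ab1, H2-Eb1, Cd74, all loading and processing genes, Nlrc5, Ciita, and the 3 of smallest p in each class. Samples were grouped by title. Same-numbered tumours did not deviate together (correlations -0.080 to -0.034), so no pairing by number was seen. With 3 tumours in each group these correlations cannot exclude a pairing. Alternatives changed the background correction, offset, filter, normalization, probe choice, weights, trend, block and arrays.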

Additional observations from a re-analysis of the deposited data

How the results depend on the processing

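With 6 arrays only large differences could pass, and dim probes, at most 1 or 2 log2 units above background, carry the least certain values. No member probe passed adjusted p 0.05 in limma's test under any alternative run, and the lowest adjusted p of a member over the planned ones was 0.7659, without PyMT control replicate 1. Over all probes the count of 0 became 0 to 18 with 1 array left out (18 without PyMT control replicate 1) and 1 without PyMT control replicates 2 and 3. The median difference of the heavy chains, 0.13, was 0.10 to 0.13 under the other planned settings, 0.058 to 0.25 with 1 array left out, and -0.069 without both those controls. The groups did not overlap for 3 member genes, against 8.17% of all genes. Without the filter on dim probes there were 6, against 8.69% of all genes. With 1 array left out there were 3 to 14, against 16.2% to 21.9% of all genes. Without both those controls there were 17, against 44.3% of all genes. Fewer samples make separation more frequent. Treating replicate number as a block gave a heavy chain median of 0.13 and 0 calls. The labels do not say whether same-numbered tumours are paired. The mean over a gene's probes gives no count of probes.

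Of 234 gene differences with 1 array left out, 34 turned sign, in 19 genes. Their ranges were -0.068 to 0.088 for B2m, -0.023 to 0.61 for H2-Aa, -0.12 to 0.20 for H2-Ab1, -0.020 to 0.30 for H2-DMa, -0.12 to 0.080 for H2-DMb1, -0.22 to 0.15 for H2-DMb2, -0.023 to 0.29 for H2-Ea, -0.16 to 0.20 for H2-Eb1, -0.145 to 0.38 for H2-Eb2 and -0.19 to 0.034 for H2-Ke6. Those of the rest were -0.34 to 0.011 for H2-M10.1, -0.11 to 0.28 for H2-M11, -0.34 to 0.056 for H2-M9, -0.29 to 0.12 for H2-Oa, -0.040 to 0.036 for H2-Q1, -0.043 to 0.26 for H2-Q5, -0.054 to 0.054 for Psmb10, -0.016 to 0.27 for Psmb8 and -0.26 to 0.25 for Tap1. Of those that kept their sign, wide ranges were 0.0061 to 0.24 for Nlrc5, 0.028 to 0.37 for Cd74, 0.0082 to 0.29 for H2-T23 and 0.028 to 0.27 for H2-T10. Of 341 differences under other planned settings 5 turned: H2-Q1 (0.0088) and H2-Eb1 (0.054) with array weights, H2-Q5 (-0.099) and H2-Q7 (-0.086) by the mean over probes, and H2-Eb2 (-0.14) without the filter. Without PyMT control replicates 2 and 3, a setting chosen after seeing the data, 15 of 39 turned: H2-K1 (-0.058), H2-M11 (-0.16), H2-Q5 (-0.11), H2-Q6 (-0.059), H2-Q8 (-0.14), H2-T10 (-0.080), H2-T23 (-0.27), B2m (-0.15), Erap1 (-0.088), Psmb8 (-0.29), Nlrc5 (-0.11), Tap1 (0.095), Tapbp (0.047), H2-Eb1 (0.26) and H2-Ke6 (0.066). The cause was not tested.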
